A study of Mus musculus with 34 samples.

Results

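Livers of SIRT1intKO mice and of WT mice were compared at 6 hours after partial hepatectomy (PHx), the removal of 70% of the liver, which starts regeneration of the remnant. The comparison takes the 11 libraries that the labels place at this time, 5 of SIRT1intKO and 6 of WT livers, out of 34 libraries in the series, and reads 14980 genes with enough counts to be tested out of 78298 in the table. The remaining 23 libraries are 12 livers collected without surgery, called 0 hours (6 of each genotype), and 11 livers at 24 hours (4 WT and 7 SIRT1intKO). The study's figure legends instead give 5 WT livers at 6 hours and 5 at 24 hours. The WT groups here, taken from the labels, thus differ from those of the study. The mice were males of 8 to 12 weeks on a C57/Bl6 background, and each liver is 1 mouse, a biological replicate. SIRT1intKO mice carried floxed exon 4 alleles of Sirt1 and a Cre recombinase driven by the Villin promoter, which is active in intestinal epithelium, and the WT mice were littermates with the floxed alleles and no Cre. The deletion is therefore not in the tissue that was sequenced, and liver Sirt1 does not check the genotype. Liver Sirt1 was at 8.85 to 14.1 CPM (counts scaled to the library size) in WT and at 15.6, 7.96, 7.55, 10.3 and 10.2 CPM in SIRT1intKO livers, a log2 fold change of -0.13 with a 95% interval of -0.57 to 0.32. The whole remnant liver was sequenced, with all its cell types together, and the hour of the day of surgery or collection is not given in the sources used here.

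SIRT1 is an NAD-dependent deacetylase. In the intestine one of its targets is the farnesoid X receptor (FXR, encoded by Nr1h4), the nuclear receptor for bile acids, which induces the hormone FGF15. FGF15 travels to the liver, where it restrains bile acid synthesis through the receptor FGFR4 and its partner beta-Klotho, and hepatic FXR does so through the repressor SHP (Nr0b2). In the first hours after PHx the liver enters a priming phase, in which Kupffer cells release TNF and IL-6, hepatocytes switch on immediate-early genes and many metabolic genes fall, before DNA is copied.

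The 11 libraries held from 14892098 to 18039679 counts, with medians of 17181051 in WT and 16979253 in SIRT1intKO livers, so depth did not separate the genotypes. All libraries had the profile of liver. Alb was at 15970 to 42820 CPM and 9 hepatocyte markers could be tested, whereas of 11 genes of the exocrine pancreas 2 passed the filter and of 10 genes of the intestinal epithelium 1, Fabp2, which liver also expresses. Pairs of libraries within a genotype were compared by a chi-square per gene, and pairs across genotypes were not. Within a genotype no pair looked like 1 library deposited again. The closest pair by this measure, SIRT1intKO replicates 2 and 3, still differed by a chi-square of 24.43 per gene. These 2 livers stood apart from the other 9 on the first principal component of the 6-hour livers, at -51.3 and -53.6 against -17.9 to 41.7, and WT replicate 6 stood apart on the second, at -70.1 against -11.4 or higher.

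No gene passed the threshold between the genotypes at 6 hours. With calls taken at a Benjamini-Hochberg adjusted p below 0.05 together with a log2 fold change beyond 1 in either direction, edgeR's quasi-likelihood test gave 0 of 14980 genes (0%), and the smallest adjusted p was 0.136. Leaving out SIRT1intKO replicate 4, 1 or 5 gave 7, 3 or 2 calls, Osgin1 each time, and leaving out any other library gave 0. DESeq2 called 9 genes, of which 4 had log2 fold changes over 20 in size and were at 0 in every 6-hour liver of one genotype, and Osgin1, Gclc and Ldlrad4 were among the other 5. At an unadjusted p under 0.05, which makes no allowance for the number of genes, edgeR gave 976 genes (6.52%), with 607 (4.05%) higher and 369 (2.46%) lower in SIRT1intKO livers. That balance turned to 363 higher and 560 lower under upper-quartile scaling, and to 152 higher and 176 lower without SIRT1intKO replicates 2 and 3. These unadjusted counts are used below as the background against which groups of genes are read.

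The data limit most differences to less than 2-fold. The log2 fold changes had a median of 0.006 and quartiles of -0.19 and 0.16, their median standard error was 0.23, and for 10443 genes (69.7%) the 95% interval of the difference lay within 1 of 0 on the log2 scale. For the other genes the interval reached past a 2-fold difference. The genotype difference at 6 hours minus that at 0 hours gave 0 called genes by edgeR and 457 (3.05%) at an unadjusted p under 0.05, with a smallest adjusted p of 1. DESeq2 called 2 there, both with log2 differences over 20 in size. Before surgery, 161 genes (1.07%) had an unadjusted p under 0.05 between the genotypes.

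**Figure D1:**
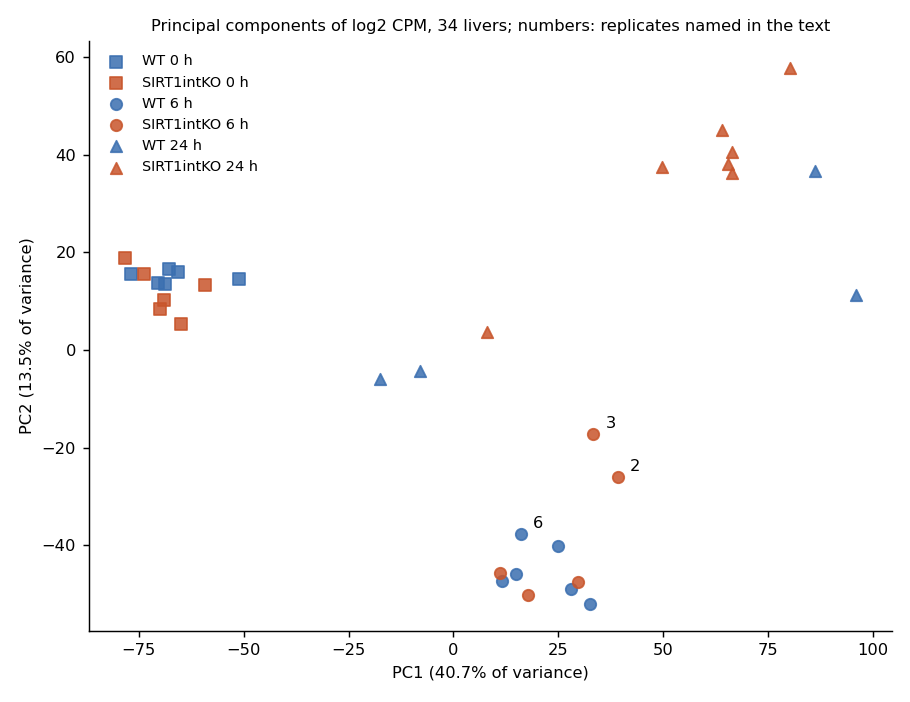
Principal components of log2 CPM of all 34 livers (x axis, PC1 with 40.7% of the variance; y axis, PC2 with 13.5%); each point is 1 liver, color gives the genotype and shape the time. The 6-hour livers of both genotypes lie mixed between -52 and -37.6 on PC2 apart from SIRT1intKO replicates 2 and 3, which lie nearer to the 24-hour livers.

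The genes with the smallest p-values higher in SIRT1intKO livers were, for the most part, genes that were high in replicates 2 and 3. Osgin1, an oxidative-stress gene that both NRF2 and FXR are known to induce, had the largest evidence. It was at 10.1 CPM in the lowest, 20.03 in the median and 46.6 in the highest WT liver, and at 24.8, 601, 520, 15.7 and 13.2 CPM in SIRT1intKO replicates 1 to 5. The 2 high livers exceeded every other 6-hour liver, whereas the other 3 lay inside the WT range. The log2 fold change was 3.34 with a standard error of 0.66 (unadjusted p = 1.75e-05, adjusted p = 0.136 by edgeR), and without replicates 2 and 3 it was -0.37.

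Gclc, the catalytic subunit of the enzyme that limits glutathione synthesis and a classical NRF2 target, was also highest in these livers, but not above WT in them alone. It was at 31.1, 39.6 and 56.9 CPM in the lowest, median and highest WT liver and at 42.4, 126, 242, 57.7 and 72.0 CPM in SIRT1intKO replicates 1 to 5. SIRT1intKO replicates 2 to 5 lay above all WT livers, replicate 4 by a narrow margin, and replicate 1 lay within them. The log2 fold change was 1.39 with a standard error of 0.29 (adjusted p = 0.184 by edgeR).

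Nr0b2, which encodes the bile acid-induced repressor SHP, and both Slc51b, a subunit of the basolateral bile acid exporter OST, and Abcb1a, a canalicular efflux pump of the multidrug resistance family, had the same shape. Nr0b2 was at 4.72 to 13.3 CPM in WT livers (median 9.85) and at 10.4, 91.3, 99.4, 3.88 and 7.19 CPM in SIRT1intKO replicates 1 to 5, a log2 fold change of 2.18 (SE 0.56, adjusted p = 0.558 by edgeR). Slc51b was at 0 to 2.18 CPM in WT (median 0.464) and at 0.128, 11.2, 15.3, 0.303 and 1.26 CPM in SIRT1intKO livers, a log2 fold change of 3.07 (SE 0.98, adjusted p = 0.696 by edgeR). Abcb1a was at 0.802 to 2.43 CPM in WT (median 1.26) and at 1.48, 11.8, 18.5, 0.971 and 1.98 CPM in SIRT1intKO livers, a log2 fold change of 2.23 (SE 0.65, adjusted p = 0.558 by edgeR). In all 3 genes replicates 2 and 3 were above every WT liver and the other 3 SIRT1intKO livers overlapped with WT, and without the 2 livers the log2 fold changes were -0.39, -0.22 and 0.00.

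Because these genes moved together across the livers, the sequence around their start sites is printed for Osgin1, Nr0b2, Slc51b and Abcb1a. Each line runs 5′ to 3′ over 300 bases, from 250 bases before the annotated start to 50 after it, as given by RefSeq on GRCm38.p6, an older build than the GRCm39 used for the counts. The windows are chr8:119436897-119437196 on the plus strand for Osgin1, chr4:133553126-133553425 on the plus strand for Nr0b2, chr9:65422724-65423023 on the minus strand for Slc51b and chr5:8566841-8567140 on the plus strand for Abcb1a. Capitals mark matches on either strand to the core of the antioxidant response element, TGACNNNGC, which NRF2 binds, or to the nuclear receptor half-site AGGTCA. The 2 patterns can share the bases TGAC.
Osgin1: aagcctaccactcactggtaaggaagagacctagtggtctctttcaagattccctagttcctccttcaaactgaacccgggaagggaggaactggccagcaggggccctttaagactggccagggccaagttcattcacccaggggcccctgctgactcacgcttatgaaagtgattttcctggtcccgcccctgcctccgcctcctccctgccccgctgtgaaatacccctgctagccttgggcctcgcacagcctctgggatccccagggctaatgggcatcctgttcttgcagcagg
Nr0b2: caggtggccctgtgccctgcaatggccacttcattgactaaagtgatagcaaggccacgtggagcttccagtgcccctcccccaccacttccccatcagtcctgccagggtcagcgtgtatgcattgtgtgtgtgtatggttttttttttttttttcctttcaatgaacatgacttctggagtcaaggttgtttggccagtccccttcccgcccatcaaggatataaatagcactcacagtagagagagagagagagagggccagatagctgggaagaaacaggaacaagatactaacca
Slc51b: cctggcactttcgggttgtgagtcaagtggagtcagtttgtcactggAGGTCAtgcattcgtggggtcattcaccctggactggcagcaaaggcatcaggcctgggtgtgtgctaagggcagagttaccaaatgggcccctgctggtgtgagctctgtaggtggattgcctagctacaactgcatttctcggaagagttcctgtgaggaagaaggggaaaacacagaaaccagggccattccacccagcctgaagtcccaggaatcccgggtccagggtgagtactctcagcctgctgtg
Abcb1a: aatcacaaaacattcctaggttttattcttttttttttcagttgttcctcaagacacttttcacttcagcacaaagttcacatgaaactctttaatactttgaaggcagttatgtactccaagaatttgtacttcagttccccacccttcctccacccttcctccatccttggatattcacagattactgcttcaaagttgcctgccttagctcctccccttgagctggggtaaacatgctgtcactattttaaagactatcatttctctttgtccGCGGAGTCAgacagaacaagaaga
The antioxidant pattern was in the Abcb1a window, and the half-site was in the Slc51b window. Among the 32851 windows from RefSeq, 12.4% hold the first pattern and 16.3% the second, so a match says little by itself, and the absence of these letters from the Osgin1 and Nr0b2 windows says nothing about binding elsewhere.

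A wider set of NRF2 targets, chosen after these values were seen, lay mostly above 0. Of 24 tested, 21 had a log2 fold change above 0, 7 had an unadjusted p under 0.05, all higher, and the median was 0.33 against 0.006 over all genes. Beside Osgin1 and Gclc these were Txnrd1 and Srxn1, which reduce thioredoxin and peroxiredoxins, Gclm, the modifier subunit of the glutathione enzyme, Gsr, which recycles glutathione, and Slc7a11, the cystine importer, which was under 2 CPM in every liver. Txnrd1 was at 77.4, 103 and 141 CPM in the lowest, median and highest WT liver and at 102, 193, 223, 160 and 141 CPM in SIRT1intKO livers, a log2 fold change of 0.68 (adjusted p = 0.558 by edgeR). Nqo1, which NRF2 controls in many tissues, was at 1.46 to 2.81 CPM in WT and 2.05 to 2.83 CPM in SIRT1intKO livers, a log2 fold change of 0.32 with a 95% interval of -0.22 to 0.86. Replicates 2 and 3 were the highest pair of the 11 livers in 8 of the 24, against 9.81% of all genes tested, and without them the median of the list was 0.09.

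**Figure D2:**
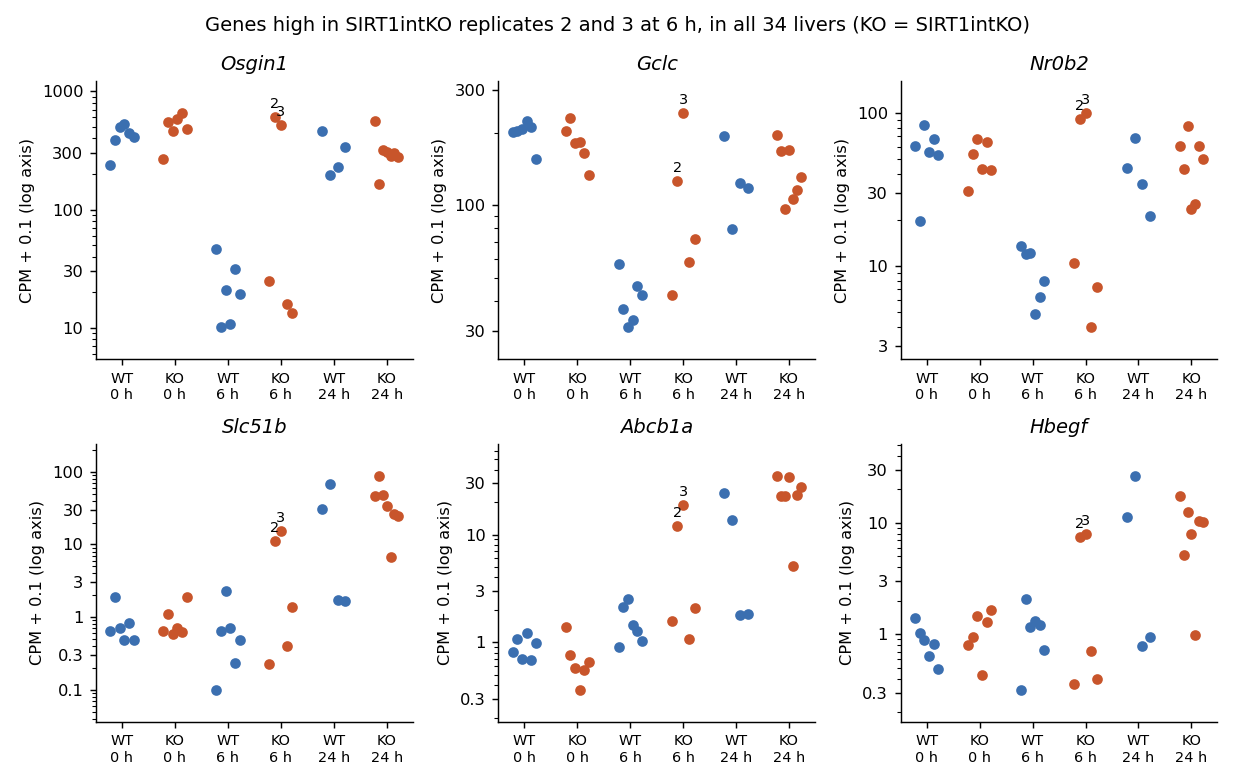
CPM plus 0.1 on a log axis of 6 genes in each of the 34 livers, by genotype and time (KO, SIRT1intKO); numbers mark SIRT1intKO replicates 2 and 3 at 6 hours. In these 2 livers Osgin1 lies at the level of 0-hour livers, and Slc51b, Abcb1a and Hbegf lie above all 0-hour livers and within the wider range at 24 hours.

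Many genes stood apart in these 2 livers. Replicates 2 and 3 were the highest pair of the 11 livers in 1469 genes (9.81%) and the lowest pair in 1024 (6.84%). In 67 genes with a mean of at least 1 CPM both exceeded every other 6-hour liver more than 2-fold. Their values lay within the range of the 11 livers at 24 hours in 40 of the 67 and within that of the 12 livers at 0 hours in 7. The genes within the range at 24 hours but not at 0 hours numbered 35, and those within the range at 0 hours but not at 24 hours numbered 2. The 24-hour livers were more spread, from -17.6 to 95.9 on PC1 of all livers against -78.2 to -51 at 0 hours. Values therefore fall within the 24-hour range more easily. Since the selection used SIRT1intKO replicates 2 and 3, these are counts of levels and no test was made.

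Some ligands and receptors of growth signaling were among the 67 genes and are described here, chosen after their values were seen. Of 20 growth factors and receptors in a wider list 0 were higher and 1 was lower at an unadjusted p under 0.05, with a median log2 fold change of 0.12, or -0.03 without replicates 2 and 3, which were the highest pair in 5 of the 20. Hbegf, a ligand of the EGF receptor that acts as a hepatocyte mitogen, was at 0.219 to 1.97 CPM in WT livers and at 0.257, 7.39, 7.80, 0.607 and 0.299 CPM in SIRT1intKO replicates 1 to 5, while it was at 0.331 to 1.55 CPM at 0 hours and at 0.681 to 26.3 CPM at 24 hours. Its log2 fold change was 1.62 with all livers and -1.43 without replicates 2 and 3. Nrg1, a ligand of ERBB receptors, and Pdgfa, a ligand for mesenchymal cells, were at 3.66 and 4.40 and at 16.8 and 16.2 CPM in these livers against at most 0.837 and 6.17 CPM in the other 9. The receptor Fgfr2 was at 63.0 and 64.9 CPM against 16.6 to 28.8 CPM. Tnfrsf12a, the receptor for TWEAK that rises in injured liver, was at 130 and 127 CPM against 20.7 to 59.9 CPM. All of these genes overlapped between genotypes through the remaining SIRT1intKO livers.

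Transcription factors of the immediate-early response followed the same livers. Of 28 immediate-early genes tested, 4 had an unadjusted p under 0.05, all higher, which were Egr1, Ier2, Maff and Dusp6, and the median log2 fold change was 0.44. Egr1, which growth factors induce within minutes, was at 21.6, 34.2 and 76.5 CPM in the lowest, median and highest WT liver and at 26.04, 191, 233, 39.9 and 47.8 CPM in SIRT1intKO livers, a log2 fold change of 1.38 (SE 0.57, adjusted p = 0.737 by edgeR). Unoperated livers at 0 hours had 55.3 to 380 CPM of Egr1, a range that held the values of replicates 2 and 3. Replicates 2 and 3 were the highest pair in 17 of the 28, and without them the list's median was 0.00. Myc, which drives cell growth, was at 18.3 and 18.9 CPM in the 2 livers against 4.00 to 8.61 CPM in the other 9, and its log2 fold change of 0.66 had a 95% interval of -0.45 to 1.77. Its range at 0 hours, 1.92 to 34.3 CPM, also held both values.

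Other members of the 67 genes are enzymes and structural proteins. Fmo5, a flavin monooxygenase abundant in hepatocytes, was at 301 to 679 CPM in WT livers and at 509, 1662, 2056, 563 and 612 CPM in SIRT1intKO livers, a log2 fold change of 1.05 (SE 0.30, adjusted p = 0.558 by edgeR). Cxadr, a junction protein that serves as the coxsackievirus and adenovirus receptor, was at 260 and 332 CPM in replicates 2 and 3 and at 37.8 to 95.9 CPM in the other 9 livers. Ppl, a desmosomal plakin, was at 109.9 and 129 CPM against 8.01 to 25.8 CPM, which was above all livers at 0 hours (3.21 to 10.1 CPM) and at 24 hours (12.4 to 81.4 CPM). Alpl, alkaline phosphatase, was at 106 and 95.7 CPM against 12.1 to 32.8 CPM, and Gdf15, a stress hormone, at 64.2 and 84.9 CPM against 2.95 to 27.8 CPM. Of the 10 smallest p-values higher in SIRT1intKO livers, Gprc5c, Ak4, Fam210a and Ppp1r13b, like Ldlrad4, also had their highest pair in the same livers.

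In 29 genes both livers were below every other 6-hour liver by more than 2-fold, and both values were within the range at 24 hours in 25 of the 29 and within the range at 0 hours in 7. The wider range of the 24-hour livers bears on these counts too. Cyp8b1, the sterol 12-alpha-hydroxylase that sets the share of cholic acid and is repressed by SHP, was at 51.6 to 273 CPM in WT livers and at 82.0, 23.8, 18.6, 78.7 and 64.0 CPM in SIRT1intKO replicates 1 to 5, a log2 fold change of -1.47 with a 95% interval of -3.53 to 0.58. Cyp17a1, a steroid hydroxylase, was at 7.46 and 9.37 CPM in the 2 livers against 33.03 to 262 CPM, and G0s2, an inhibitor of triglyceride lipase, at 14.4 and 10.4 CPM against 62.4 to 295 CPM. Of these 29 genes 2 had an unadjusted p under 0.05.

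A smaller set of genes had all SIRT1intKO livers on one side of all WT livers. The groups did not overlap in 71 of 14980 genes (0.474%), 38 higher (0.254%) and 33 lower (0.22%) in SIRT1intKO livers. With a mean of at least 1 CPM there were 36 higher, with a median size of 0.33 on the log2 scale and 2 over 1, and 23 lower, with a median size of 0.88 and 6 over 1. With groups this small and this many genes, some full separation arises without any genotype difference, and how much was not tested. These are levels without a test, and the genes were named after their values were seen, apart from those among the smallest p-values.

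Of 33 genes of IL-6 and TNF signaling 2 were separated and higher, Socs3 and Jak1, and of 17 chemokines and 50 interferon-stimulated genes 0 were. Cyld, a deubiquitinase that restrains NF-kappaB, was at 8.43 to 12.2 CPM in WT livers (median 11.6) and at 14.2, 14.8, 15.5, 12.9 and 13.96 CPM in SIRT1intKO livers, a log2 fold change of 0.39 with a standard error of 0.09 (adjusted p = 0.525 by edgeR). Ikbkb, the kinase that activates NF-kappaB, was at 38.2 to 42.7 CPM in WT and at 46.2, 47.8, 47.3, 47.3 and 43.2 CPM in SIRT1intKO livers, a log2 fold change of 0.20 (adjusted p = 0.737 by edgeR). Here the SIRT1intKO livers were close to each other. Replicates 2 and 3 were the highest pair for Cyld, by a small margin over replicate 1, but not for Ikbkb. Socs3, the feedback inhibitor of IL-6 signaling, was at 66.2 to 93.6 CPM in WT and at 121, 137, 110, 147 and 124 CPM in SIRT1intKO livers. Its log2 fold change of 0.68 had a 95% interval of -0.42 to 1.78 (unadjusted p = 0.218 by edgeR), with a spread that the model takes from all 34 livers. Icam1, an adhesion molecule for leukocytes, was separated in the same way, with 13.5 to 21.2 CPM in WT and 21.6 to 29.5 CPM in SIRT1intKO livers.

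Sp1, a general transcription factor, was at 23.7 to 26.98 CPM in WT livers and at 28.1, 32.3, 32.3, 32.6 and 32.5 CPM in SIRT1intKO livers, a log2 fold change of 0.33 (SE 0.09, adjusted p = 0.558 by edgeR). Fat1, a giant cadherin, was at 25.4 to 34.9 CPM in WT and at 36.98 to 41.6 CPM in SIRT1intKO livers, and Edem1, which directs misfolded proteins out of the endoplasmic reticulum (ER), at 133 to 169 CPM in WT and 170 to 188 CPM in SIRT1intKO livers. Net1, Cep170b, Ubac2, Mbd3, Ddx19b, Eif4ebp2, Tollip and Jak1 were also separated, with log2 fold changes of 0.21 to 0.50. Their spread differed, since Net1 ran from 52.5 to 83.9 CPM in SIRT1intKO livers with replicates 2 and 3 the highest, and the groups of Cep170b were nearly in contact, at 34.49 CPM in the highest WT and 34.5 CPM in the lowest SIRT1intKO liver.

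**Figure D3:**
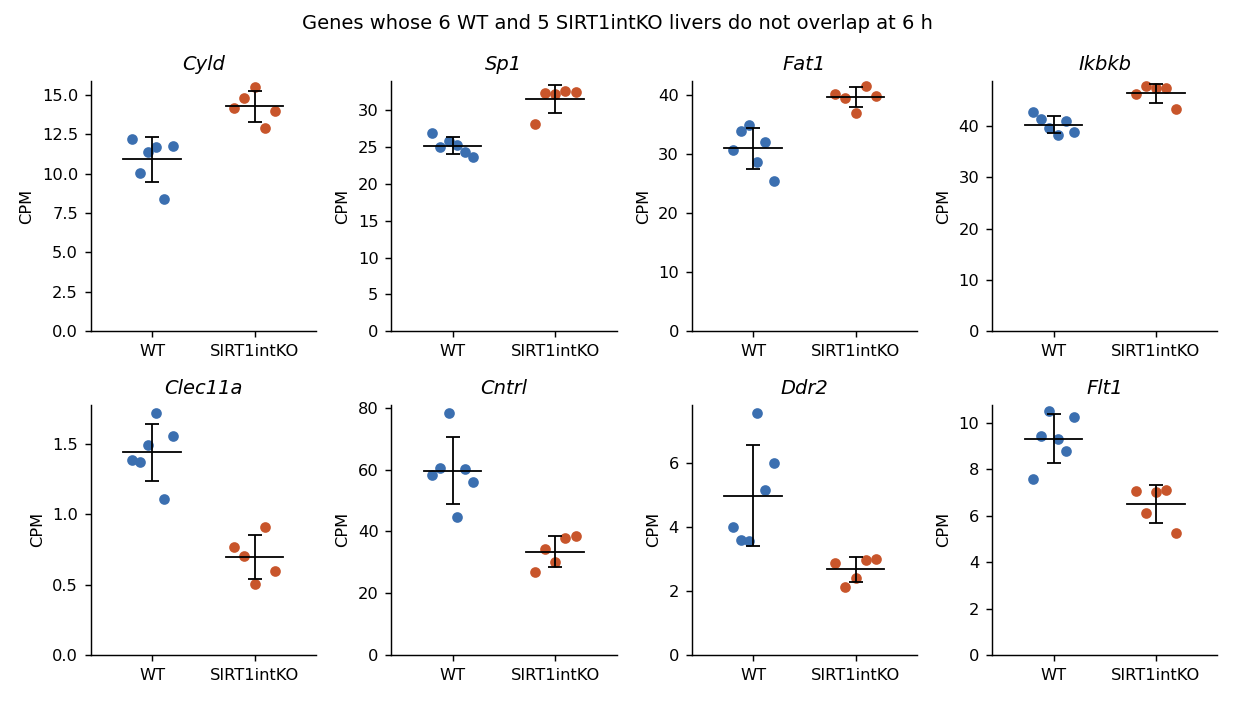
CPM on linear axes from 0 of 8 genes in the 6 WT and 5 SIRT1intKO livers at 6 hours; points are livers, horizontal bars are means and error bars are SD. For Cyld, Sp1, Fat1 and Ikbkb all SIRT1intKO livers lie above all WT livers, and for Clec11a, Cntrl, Ddr2 and Flt1 all lie below.

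The separated genes that were lower had the larger median difference, but those with the largest differences were weakly expressed. The 6 over 1 in size with a mean of at least 1 CPM had means of 1.08 to 1.74 CPM. In the most abundant ones, Tmem106b, Ndufa1, Slc1a2 and Cntrl, the log2 fold changes were -0.31, -0.43, -0.29 and -0.83. No tested marker of Kupffer cells, sinusoidal endothelium, stellate cells, monocytes or neutrophils was separated and lower (0 of 12, 14, 12, 10 and 10). In bulk tissue fewer cells of a type and less RNA per cell cannot be told apart. Clec11a, a growth factor of stromal cells, was at 1.11, 1.44 and 1.72 CPM in the lowest, median and highest WT liver and at 0.770, 0.704, 0.503, 0.910 and 0.599 CPM in SIRT1intKO livers, a log2 fold change of -1.04 (SE 0.25, adjusted p = 0.525 by edgeR). Ddr2, a collagen receptor of stellate cells and fibroblasts, was at 3.55 to 7.55 CPM in WT and at 2.89, 2.11, 2.39, 2.97 and 3.00 CPM in SIRT1intKO livers, a log2 fold change of -0.89 (SE 0.24, adjusted p = 0.558 by edgeR). Flt1, a VEGF receptor of endothelial cells, was at 7.58 to 10.5 CPM in WT and at 7.05, 6.13, 7.04, 7.10 and 5.27 CPM in SIRT1intKO livers, a log2 fold change of -0.52. Relative to the level of the gene, the gap between the groups was narrow for Flt1 and wider for Clec11a, which rests on fewer reads.

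Nrarp, a feedback regulator of Notch signaling, was at 1.01 to 2.12 CPM in WT and at 0.898, 0.423, 0.566, 0.485 and 0.359 CPM in SIRT1intKO livers, a log2 fold change of -1.47 (SE 0.43, adjusted p = 0.558 by edgeR). Ly86, which forms a complex with a Toll-like receptor homolog on immune cells, Fstl1 and Svep1, both secreted by mesenchymal cells, and the endothelial genes Hspa12b and Ly6c1 were also lower in every SIRT1intKO liver, with log2 fold changes of -1.18 to -0.66. The extracellular matrix protein Mgp did not separate, since WT replicate 1 was at 1.75 CPM and SIRT1intKO replicate 1 at 2.89 CPM, and its log2 fold change was -1.32 (SE 0.39). The serine protease gene Tmprss2, the dipeptidase gene Dpep1, the copper chaperone gene Cox11 and Mcrip2 were also among the smallest p-values of the lower genes while their groups overlapped, with log2 fold changes of -1.04, -1.18, -0.52 and -0.64.

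Cntrl, which encodes the centrosomal protein centriolin, was lower also at another time. It was at 44.7, 59.1 and 78.5 CPM in the lowest, median and highest WT liver at 6 hours and at 27, 34.2, 29.9, 37.8 and 38.5 CPM in SIRT1intKO livers, a log2 fold change of -0.83 (SE 0.22, adjusted p = 0.558 by edgeR). At 24 hours, in other mice, its log2 fold change was -0.86 (unadjusted p = 0.000739), and at 0 hours it was -0.11.

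Marker lists of other liver cell types had medians on both sides of 0. Red blood cells were at -0.71, monocytes at -0.38 and cholangiocytes at -0.34, while lymphocytes were at 0.31 and mesothelium and fat at 0.42, each over 5 genes. All 12 Kupffer cell markers had log2 fold changes below 0, with a median of -0.48 and 1 at an unadjusted p under 0.05, C1qc, a complement subunit made by resident macrophages. C1qc was at 15.8, 30.3 and 55.4 CPM in the lowest, median and highest WT liver and at 24.3, 23.4, 22.01, 21.2 and 15.1 CPM in SIRT1intKO livers. WT replicate 6 was the highest liver in 10 of the 12 markers, and without it the median was -0.29. The summed level of the 12 markers was 121 to 387 CPM in WT and 127 to 202 CPM in SIRT1intKO livers, so the groups overlapped.

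Of 12 stellate cell and fibroblast markers, 11 were below 0, with a median of -0.47 and 1 at an unadjusted p under 0.05, Dcn, the matrix proteoglycan decorin. Dcn was at 77.7 to 144 CPM in WT and at 100.5, 76.8, 70.4, 82.9 and 76.2 CPM in SIRT1intKO livers, a log2 fold change of -0.42 (adjusted p = 0.737 by edgeR). Of 14 markers of sinusoidal endothelium 13 were below 0, with a median of -0.29 and none at an unadjusted p under 0.05, and WT replicate 6 was the highest liver in 8 of them. Without that liver the endothelial median was -0.18. Neutrophil markers were low in all livers, with sums of 6.52 to 19.98 CPM apart from 61.3 CPM in WT replicate 6, where S100a9 reached 32.5 CPM against 1.85 to 6.99 CPM elsewhere. Hepatocyte markers had a median of 0.02. The part of these cell types in the separated genes was not tested.

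Cytokine signaling genes lay slightly above 0 as a group. Of 33 genes of IL-6 and TNF signaling tested, 27 had log2 fold changes above 0, with a median of 0.23, and the list's median was 0.25 without SIRT1intKO replicates 2 and 3. The unadjusted p was under 0.05 for 1 of them, Tyk2, a Janus kinase, at 7.35 to 12.02 CPM in WT and 11.7, 15.7, 14.3, 12.6 and 11.6 CPM in SIRT1intKO livers, a log2 fold change of 0.43 (adjusted p = 0.558 by edgeR). Stat3, the main mediator of IL-6 in hepatocytes, was at 160 to 205 CPM in WT and 199 to 265 CPM in SIRT1intKO livers, a log2 fold change of 0.25 with a 95% interval of -0.12 to 0.62. Acute-phase proteins, the products of that pathway, had a median of -0.09, and 1 of 24 had an unadjusted p under 0.05, Hamp, the iron hormone hepcidin. It was at 1279 to 4482 CPM in WT livers and at 2011, 805, 454, 2487 and 2004 CPM in SIRT1intKO livers, a log2 fold change of -0.89 (adjusted p = 0.761 by edgeR), and the livers outside the WT range were replicates 2 and 3.

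Chaperones of the ER were above 0 in 20 of 21 genes, with a median of 0.23, also without replicates 2 and 3, but 1 gene, Edem1, had an unadjusted p under 0.05. Hspa5, the chaperone BiP, was at 894 to 1668 CPM in WT and at 1055, 2440, 1189, 2258 and 1485 CPM in SIRT1intKO livers, a log2 fold change of 0.35 with a 95% interval of -0.17 to 0.88. Genes of the integrated stress response, the program that ATF4 runs, had a median of 0.21. At an unadjusted p under 0.05, 4 of 26 were higher and 1 was lower, against 4.05% and 2.46% of all genes. Without replicates 2 and 3 the list's median was 0.12 and 0 of its genes had an unadjusted p under 0.05. With all livers the higher ones were Psat1, Phgdh, Mthfd2 and Slc7a11, which make serine and one-carbon units or import cystine. The lower one was Ddit4, an inhibitor of mTOR. Psat1 was at 1.32 to 4.97 CPM in WT and at 5.45, 7.18, 27.6, 1.15 and 4.91 CPM in SIRT1intKO livers, a log2 fold change of 1.94 (SE 0.68, adjusted p = 0.731 by edgeR), so that replicate 3 was far above the rest.

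**Figure D4:**
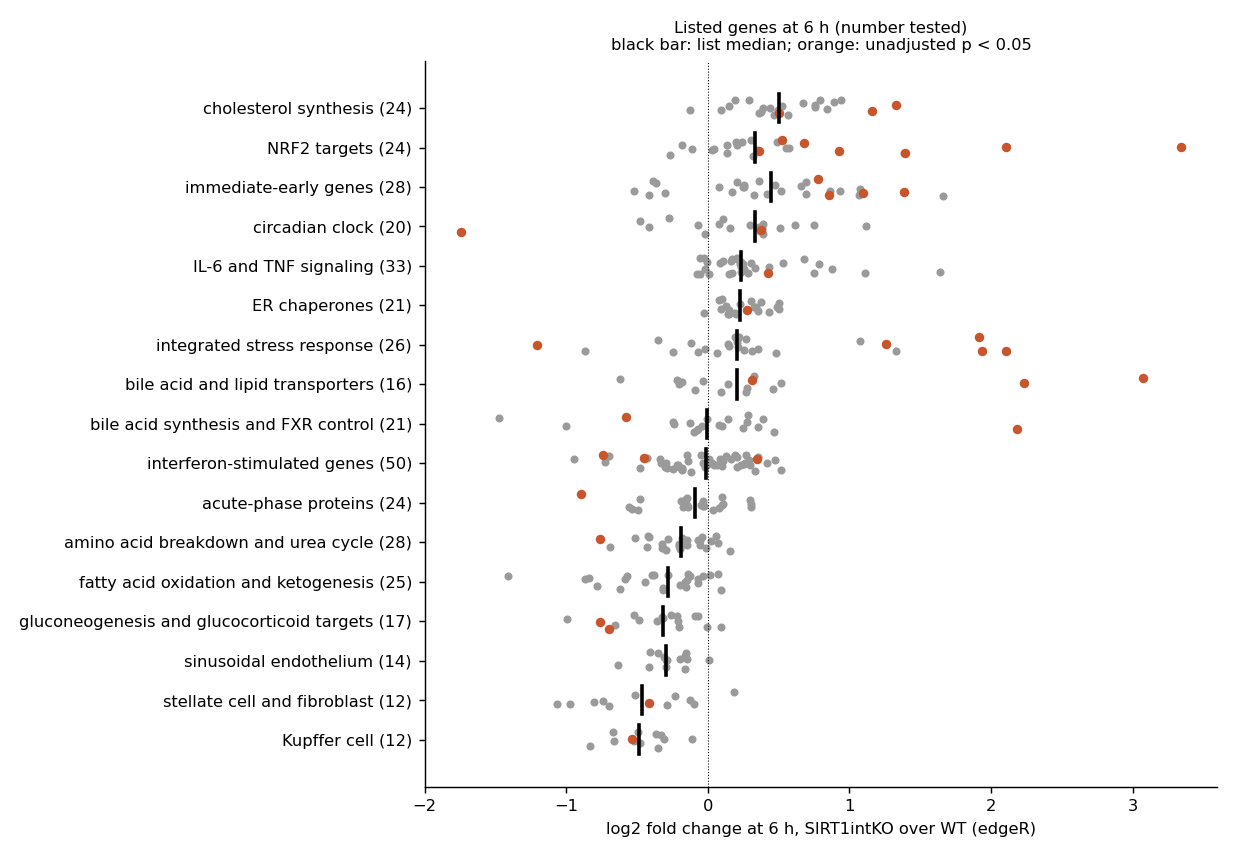
Log2 fold change of each tested gene at 6 hours, SIRT1intKO over WT (x axis), for 17 lists of genes with the number tested in parentheses; black bars are list medians and orange points have an unadjusted p under 0.05. Medians range from 0.50 for cholesterol synthesis to -0.48 for Kupffer cell markers, against 0.006 for all genes.

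Cholesterol synthesis had the largest median among the lists of function. Of 24 genes 23 were above 0, with a median of 0.50, and 3 had an unadjusted p under 0.05. Among them were Hmgcs1, which makes the substrate of HMG-CoA reductase, and Sc5d, a late enzyme of the pathway. Hmgcs1 was at 23.3, 44.4 and 83.3 CPM in the lowest, median and highest WT liver and at 48.2, 132, 192, 28.2 and 100.3 CPM in SIRT1intKO livers, a log2 fold change of 1.16 (SE 0.51, adjusted p = 0.761 by edgeR). Sc5d was at 45.5 to 95.1 CPM in WT and at 128, 68.2, 86.7, 75.2 and 93.9 CPM in SIRT1intKO livers, a log2 fold change of 0.50 (adjusted p = 0.737 by edgeR). Both genotypes overlapped for these genes. Without replicates 2 and 3 the list's median was 0.27.

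Genes of fuel use lay below 0. Fatty acid oxidation and ketogenesis had 22 of 25 genes below 0, with a median of -0.28 and no gene at an unadjusted p under 0.05. Gluconeogenesis and glucocorticoid targets had 16 of 17 below 0, with a median of -0.32, and 2 genes at an unadjusted p under 0.05, Tdo2, which starts tryptophan breakdown, and Lpin1, a phosphatidate phosphatase that also acts as a coactivator. Tdo2 was at 1442 to 2963 CPM in WT and at 1580, 762, 628, 1483 and 1541 CPM in SIRT1intKO livers, a log2 fold change of -0.76 (adjusted p = 0.737 by edgeR), with replicates 2 and 3 below the WT range and the other 3 within it. G6pc1, the last enzyme of glucose release, was at 187 to 432 CPM in WT and 52.8 to 199.8 CPM in SIRT1intKO livers, a log2 fold change of -0.995 with a 95% interval of -2.30 to 0.31, while Pck1 had a log2 fold change of -0.01 with an interval of -0.53 to 0.51. Amino acid breakdown and urea cycle had 24 of 28 below 0, with a median of -0.19, and replicates 2 and 3 were the lowest pair in 12 of the 28. Without these livers that median was 0.01.

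Bile acid genes had no common direction. Among 21 genes of bile acid synthesis and FXR control the median was -0.003, with Nr0b2 higher and Nr1h4 lower at an unadjusted p under 0.05. Nr1h4 was at 48.2 to 121 CPM in WT and at 80.9, 33.95, 33.1, 79.1 and 58.8 CPM in SIRT1intKO livers, a log2 fold change of -0.58 (adjusted p = 0.764 by edgeR), again with replicates 2 and 3 alone below the WT range. Cyp7a1, the rate-limiting enzyme of bile acid synthesis, was low in nearly all 6-hour livers, at 0.292 to 5.77 CPM in WT (median 0.592) and at 1.603, 0.423, 0.566, 0.789 and 0.419 CPM in SIRT1intKO livers, and the 95% interval of its log2 fold change was -3.27 to 1.26. For Fgfr4 and Klb, the FGF15 receptor and its partner, the log2 fold changes were 0.35 (interval -0.06 to 0.77) and 0.39 (interval -0.51 to 1.29). Of 16 bile acid and lipid transporters 3 were higher at an unadjusted p under 0.05, Slc51b, Abcb1a and the flippase Atp8b1, and the median was 0.21. Without replicates 2 and 3 this median was -0.08 and 0 transporters had an unadjusted p under 0.05. Abcb11, the bile salt export pump, was at 125 to 222 CPM in WT and at 184, 289, 431, 204 and 209 CPM in SIRT1intKO livers, a log2 fold change of 0.52 with a 95% interval of -0.01 to 1.04. Of 14 hepatic FXR targets, chosen after the values were seen, 3 were higher at an unadjusted p under 0.05, Osgin1, Nr0b2 and Slc51b, and the median was 0.16, or -0.28 without replicates 2 and 3.

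For its 6-hour genes the study compared 6 hours with 0 hours within each genotype, not the genotypes with each other at 6 hours. It describes some of these genes as shared by both genotypes and others as specific to SIRT1intKO. Counts over all of them therefore do not check its calls. Of 27 genes that the study discusses for 6 hours, a choice made on these samples and thus no independent evidence, 1 was higher, Abcb1a, and 4 were lower at an unadjusted p under 0.05. The lower genes were the cytokine Il15, the RNA sensor Tlr7, and the interferon-stimulated Oas1c and Sp100, with log2 fold changes of -1.65, -1.15, -0.74 and -0.45. Il15, Tlr7 and Oas1c were under 1 CPM in all 6-hour livers apart from 2.10 CPM of Tlr7 in WT replicate 6, so their values rest on few reads. The median of the 27 was -0.12, and that of 50 interferon-stimulated genes was -0.01, with 1 higher and 2 lower at an unadjusted p under 0.05. The stress genes Atf3 and Eif2ak3 had log2 fold changes of 1.08 (95% interval -0.24 to 2.40) and 0.31 (interval -0.10 to 0.73). Atf3 was at 1.90 to 6.04 CPM in WT and at 0.898, 11.6, 13.3, 4.98 and 5.93 CPM in SIRT1intKO livers, so replicates 2 and 3 were the highest and replicate 1 the lowest of all.

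The spread within each genotype was larger than the difference between them for many genes. Spread was measured as the SD of log2 CPM among the livers of a group in the 9014 genes with a mean of at least 5 CPM. Its median was 0.24 in WT and 0.21 in SIRT1intKO livers, and 4037 genes were more spread in SIRT1intKO livers. Of the 100 most spread genes of each genotype 44 were in both sets, which is 44% of each. In the SIRT1intKO set replicates 2 and 3 were the highest pair in 33 genes and the lowest pair in 16. Over all 9014 genes they were the highest pair in 1079 and the lowest pair in 617. WT replicate 6 was the highest liver in 31 of the WT set. Both sets were chosen for spread among these same livers, which favors livers at the extremes, and no test was made. In WT replicate 6 the ribosomal RNA gene Rn18s-rs5 was at 7354 CPM against 612 to 2285 CPM in the other 6-hour livers. The mitochondrial RNA gene mt-Rnr2 was at 1757 against 220 to 622 CPM, and the ribosomal protein gene Rpl39 at 594 against 75.2 to 89.2 CPM. Whether this liver differed in RNA quality or library composition was not tested.

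Major urinary protein genes, which encode pheromone carriers that male liver makes under growth hormone, were prominent in both sets. Mup15 was at 4686, 27.7, 317, 248, 3208 and 1167 CPM in WT replicates 1 to 6 and at 52.6, 3689, 1892, 1062 and 70.3 CPM in SIRT1intKO replicates 1 to 5, SDs of 2.74 and 2.82. Mup17 was at 2023, 14.2, 145, 124, 2342 and 602 CPM in WT and at 39.0, 1961, 1082, 800.1 and 24.98 CPM in SIRT1intKO livers. Each genotype thus held livers with high and with low levels, and the log2 fold changes were -0.25 (95% interval -2.66 to 2.16) and -0.16 (interval -2.60 to 2.28). Because Mup genes are near-identical copies, the split of reads among them is uncertain, and their sum ranged from 12130 to 61160 CPM in WT and from 13010 to 40320 CPM in SIRT1intKO livers.

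The order of the livers was shared by many genes. WT replicates 1, 5 and 6 and SIRT1intKO replicates 2, 3 and 4 all lay above the other 5 livers in 15 of 20 tested Mup genes and in 174 of all 14980 genes, and all lay below them in 203 genes, none of them a Mup gene. This order was read from the Mup genes and is a description without a test. Serpina12, an adipokine that liver also makes, had the same order, at 46.2, 27.6 and 26.9 CPM in WT replicates 1, 5 and 6 and at 1.08 to 2.06 CPM in the other WT livers, and at 32.4, 30.6 and 34.2 CPM in SIRT1intKO replicates 2, 3 and 4 and at 1.28 and 2.46 CPM in the other pair. So did Khk and Pklr, enzymes of sugar breakdown, and Thrsp, a regulator of lipid synthesis. In the reverse order were Tff3, a secreted trefoil peptide, at 1.31, 15.7, 24.0, 28.2, 2.68 and 2.49 CPM in WT replicates 1 to 6 and at 30.4, 2.61, 1.45, 1.94 and 19.7 CPM in SIRT1intKO replicates 1 to 5, the starvation hormone Fgf21, the asparagine synthetase gene Asns, and Got1, Sds, Ppargc1a and Atf5, which serve or control amino acid and glucose metabolism. This division crosses the genotypes and does not follow the labels.

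**Figure D5:**
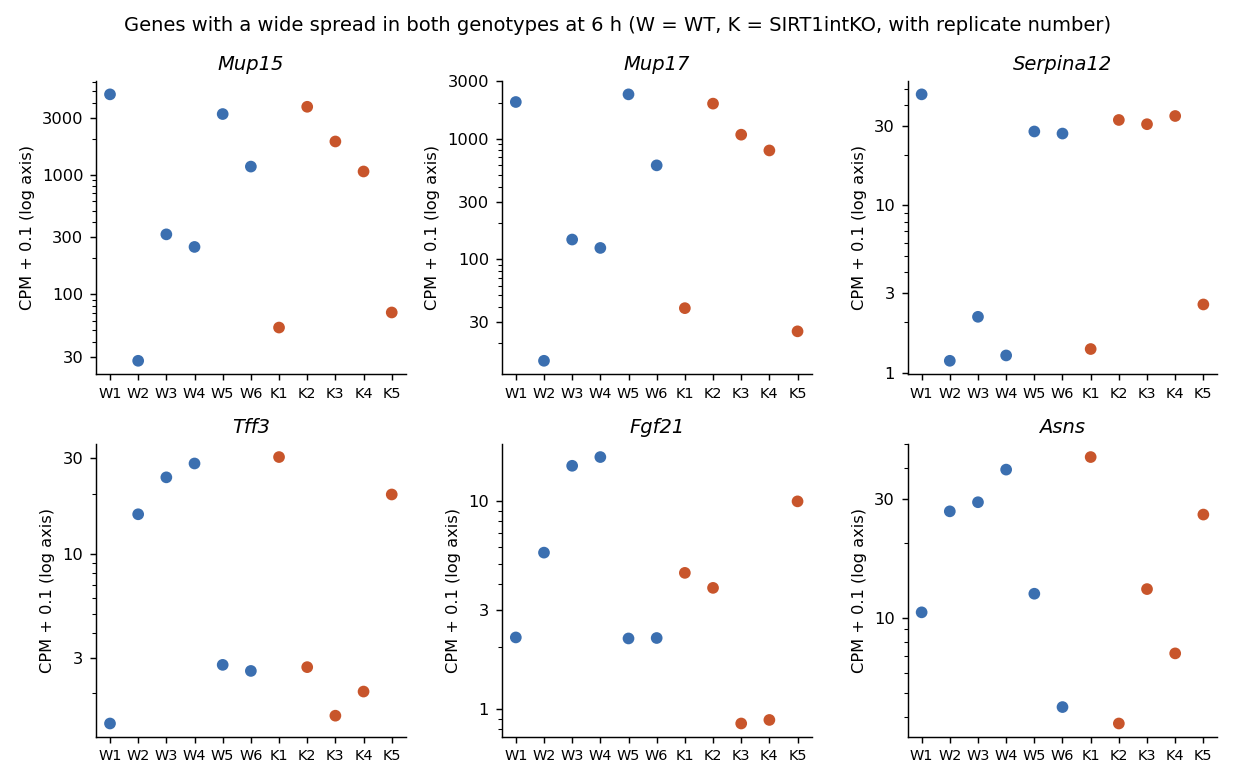
CPM plus 0.1 on log axes of 6 genes in each 6-hour liver (W, WT; K, SIRT1intKO; with the replicate number). Mup15, Mup17 and Serpina12 are high and Tff3, Fgf21 and Asns low in W1, W5, W6, K2, K3 and K4.

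Another kind of wide spread came from genes found at ordinary levels in some livers and at 0 in others. Of the 100 most spread genes, 26 in WT and 30 in SIRT1intKO livers had at least 1 liver under 1 CPM. Gm12191 was at 25.7, 23.6 and 79.8 CPM in WT replicates 1, 2 and 6 and at 0 in the other 3, and at 16.3 to 22.1 CPM in SIRT1intKO replicates 1 to 4 and at 0 in replicate 5. Gvin1, an interferon-inducible GTPase, was at 15.6 and 8.77 CPM in WT replicates 1 and 4, at 15.2, 23.03 and 16.02 CPM in SIRT1intKO replicates 1, 2 and 4, and at 0.419 CPM or 0 elsewhere. Zfp969 was at 0 in WT replicates 3 and 6 and at 5.29 to 14.8 CPM in the other 4, and at 13.3 to 19.1 CPM in all SIRT1intKO livers. The pseudogenes Rpl35a-ps2 and Rps15a-ps7 behaved in this way too, and reads of such genes, like those of Zfp969 and Gvin1 with their close relatives, can be assigned to another copy, so these values are uncertain.

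In a few further genes 1 or 2 livers stood apart. Dmbt1, a mucosal scavenger protein, was at 71.0 CPM in WT replicate 4 and at 2.57 CPM or less in the other 10 livers. The adipocyte genes Cfd and Adipoq were at 25.9 and 5.32 CPM in SIRT1intKO replicate 1 and at most at 5.21 and 1.33 CPM elsewhere. A2m, alpha-2-macroglobulin, was at 1.87 to 61.5 CPM in WT livers and at 27.8, 0.493, 0.755, 58.8 and 27.3 CPM in SIRT1intKO livers, so that replicates 2 and 3 were both below every other liver, which gave it one of the 10 largest spreads in that genotype.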

How the data were processed

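Poly(A) RNA of whole liver was sequenced by the authors as stranded paired-end libraries with reads of 100 bases. The authors deposited 1 table of expected counts per gene, estimated with Salmon after alignment with STAR in the nf-core pipeline, and the submitters' processing notes name the genome build GRCm39. These estimated counts are not normalized for depth or length, and 4.97% of them are not whole, so they were rounded. Of 35 columns 1 matched no labelled library and was not used. The letter x was absent from the table's symbols, and 1316 symbols were restored through gene identifiers with GENCODE vM21.

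Genes were tested in R 4.3.3 with edgeR 4.0.16 (TMM scaling, filterByExpr by group, quasi-likelihood fit of 6 group means to all 34 libraries). A call needed a Benjamini-Hochberg adjusted p below 0.05 and a log2 fold change beyond 1 in either direction, as in the study, where DESeq2 was used. DESeq2 1.42.0 was run beside it, with other scalings, filters, a replicate block, the 6-hour libraries alone and each library left out. Log2 CPM carried a prior count of 2, and principal components used log2 CPM. CPM is comparable between livers but not between genes, since it ignores gene length, and at these depths genes under 1 CPM rest on few reads. The tests were checked on simulated counts.

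The named genes are every called gene, the 10 smallest unadjusted p-values in each direction among genes with a mean of at least 1 CPM and a symbol other than a Gm or Rik clone name, the 10 largest SDs of log2 CPM in each genotype at a mean of at least 5 CPM, the genes the study discusses for 6 hours, and in each list up to 4 genes with an unadjusted p under 0.05, or otherwise the 2 most abundant. Any other gene, and the lists of NRF2 targets, hepatic FXR targets and Mup genes, were chosen after their values were seen. The comparison and lists were chosen with earlier results of these data known. Livers are separate mice by the labels. The p-values use a spread among mice that was estimated from all 34 livers, not from the 11 at 6 hours alone. A few genes that these rules name are not reported here.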

Additional observations from a re-analysis of the deposited data

Results flagged for a closer look

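Of 256 named genes in each genotype, 17 in WT and 15 in SIRT1intKO livers stood out in that 1 liver lay far from the others of its group. The ratio given is the gap to the nearest liver divided by the range of the group on the log2 scale. Chance alone gives about 1 in 20 such groups where log2 values are normally distributed and genes are chosen without regard to them. Some named genes were chosen for a large spread in these livers, so this share is a rough guide only. SIRT1intKO replicate 1 was the highest for Mgp (2.89 CPM, ratio 0.794) and Dmbt1 (1.15 CPM, ratio 1), and the lowest for Sp1 (28.2 CPM, ratio 0.92) and Il10rb (0.128 CPM, ratio 0.892). SIRT1intKO replicate 2 was the lowest for ENSMUSG00000134367 (0 CPM, ratio 0.857). SIRT1intKO replicate 3 was the highest for Rpl35a-ps2 (5.28 CPM, ratio 1) and Rigi (14.7 CPM, ratio 0.748). SIRT1intKO replicate 4 was the highest for Stat3 (265 CPM, ratio 0.829), and the lowest for Rps15a-ps7 (0 CPM, ratio 0.953) and Tmc5 (2.55 CPM, ratio 0.909). SIRT1intKO replicate 5 was the lowest for Gm12191 (0 CPM, ratio 0.942), Lyz2 (12.5 CPM, ratio 0.768), C1qc (15.1 CPM, ratio 0.717), Cyp7b1 (194 CPM, ratio 0.725) and Gemin4 (0 CPM, ratio 0.776). WT replicate 1 was the lowest for Mgp (1.75 CPM, ratio 0.685), Mcrip2 (15.5 CPM, ratio 0.833) and Tmc5 (2.41 CPM, ratio 0.647). WT replicate 3 was the highest for Acot5 (0.374 CPM, ratio 0.905), and the lowest for ENSMUSG00000134367 (0 CPM, ratio 0.837) and Derpc (0.249 CPM, ratio 0.782). WT replicate 4 was the highest for Fstl1 (10.2 CPM, ratio 0.632), and the lowest for Bag3 (34.2 CPM, ratio 0.681) and Cxcl1 (17.7 CPM, ratio 0.63). WT replicate 5 was the lowest for Gm4841 (0 CPM, ratio 0.668). WT replicate 6 was the highest for Hspe1 (297 CPM, ratio 0.657), S100a8 (20.3 CPM, ratio 0.713), Igf1 (952 CPM, ratio 0.657), Ly86 (6.15 CPM, ratio 0.666) and Tmem106b (137 CPM, ratio 0.774), and the lowest for Ppp1r13b (5.37 CPM, ratio 0.695) and Gemin4 (0.0778 CPM, ratio 0.626).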

How the results depend on the processing

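edgeR called 0 genes at 6 hours under other scalings, a filter of 10 counts, the 6-hour libraries alone and with the fold threshold dropped or built into the test. DESeq2 called 9, of which 3 were named genes, and 2 for the 6-hour minus 0-hour difference. Testing every gene with at least 1 count gave 2 calls, Osgin1 as the 1 named gene, and 1665 genes at an unadjusted p under 0.05. The listed genes at an unadjusted p under 0.05 numbered 49, or 78 when only the 11 libraries at 6 hours were fitted. Upper-quartile scaling moved the median of all genes to -0.053 and turned the unadjusted counts to 363 higher and 560 lower.

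Leaving out 1 library gave 0 to 7 calls, 486 to 1475 genes at an unadjusted p under 0.05, 0 to 5 named genes called and 19 to 77 listed genes, with the largest count of genes without SIRT1intKO replicate 1, the smallest without replicate 2, and the most listed genes without WT replicate 1. Without both SIRT1intKO replicates 2 and 3, an alternative chosen after seeing the data, 328 genes (152 higher and 176 lower) and 15 listed genes had an unadjusted p under 0.05, and 172 of the 976 were kept. Leaving out WT replicate 6 as well gave 258 and 6. Of 256 named genes 194 kept their sign without the pair. Among genes at an unadjusted p under 0.05 with all libraries, the log2 fold changes at or below 0 in either case follow, each without the pair, without the pair and WT replicate 6, and at the highest over all libraries left out. They were Osgin1 (-0.37, -0.42 and 3.65), Nr0b2 (-0.39, -0.43 and 2.46), Abcb1a (0.00, -0.09 and 2.50), Egr1 (-0.13, -0.16 and 1.64), Slc51b (-0.22, -0.31 and 3.98), Plk2 (-0.10, -0.20 and 0.92), Acot5 (-2.20, -2.28 and 5.04), Ppl (-0.12, -0.16 and 2.08), Alpl (-0.59, -0.65 and 1.33), Nrg1 (-0.67, -0.85 and 2.37), Cxadr (-0.11, -0.08 and 1.40), Tsku (-0.29, -0.26 and 1.47), Map3k13 (-0.09, -0.16 and 1.90), Sgms2 (-0.13, -0.09 and 1.22), Pdgfa (0.01, -0.06 and 1.36), Tgif1 (-0.12, -0.12 and 0.90), Otud1 (-0.48, -0.47 and 1.66) and B4galt5 (0.04, -0.10 and 1.59). The cause was not tested.

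With the replicate number as a block, edgeR called 0 genes, and 702 genes had an unadjusted p under 0.05, of which 654 were among the 976. Same-numbered livers did not deviate together (correlations of -0.21, -0.07, -0.04, -0.20 and -0.12), so the numbers do not pair the mice. Depth limits genes under 1 CPM, which rest on few reads.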

Other observations

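Clock genes had a median log2 fold change of 0.33 over 20 tested, with Rora higher and Npas2 lower at an unadjusted p under 0.05, and 0.04 without SIRT1intKO replicates 2 and 3. Dbp, an output gene of the clock, was at 12.5 to 23.3 CPM in WT livers and at 40.9, 34.2, 39.2, 12.2 and 24.8 CPM in SIRT1intKO replicates 1 to 5, a log2 fold change of 0.75 with a 95% interval of -0.19 to 1.68. Replicate 4 was at the WT level and the other 4 were above it.

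Cell cycle genes differed little at this early time. Of 21 genes of DNA replication and mitosis 0 had an unadjusted p under 0.05, and their median was -0.27, or -0.03 without WT replicate 6, which was the highest liver in 12 of the 21. Mki67, a marker of cycling cells, was at 0.311 to 0.784 CPM in WT replicates 1 to 5 and 3.42 CPM in replicate 6, and at 0.282 to 1.09 CPM in SIRT1intKO livers. Ccnd1, the cyclin of G1 entry, ranged widely in both genotypes, from 12.5 to 96.4 CPM in WT and from 19.4 to 88.9 CPM in SIRT1intKO livers.

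De novo lipogenesis had a median of 0.11 over 18 genes, of which Fasn, fatty acid synthase, was higher at an unadjusted p under 0.05. It was at 43.4 to 106 CPM in WT livers and at 63.7, 140, 256, 92.8 and 87.0 CPM in SIRT1intKO livers, so that replicates 2 and 3 exceeded all others. Growth hormone targets and male-biased genes had 0 of 23 at an unadjusted p under 0.05 and a median of 0.09, and the 20 tested Mup genes had 0 and a median of -0.17, which was 0.04 without WT replicate 6 and -0.87 without SIRT1intKO replicates 2 and 3.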
